A study of Rattus norvegicus with 9 samples.

Results

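The genes described here are 3 auxiliary subunits of voltage-gated sodium channels, Scn2b, Scn3b and Scn4b, and 3 hyperpolarization-activated (HCN) channels, Hcn2, Hcn3 and Hcn4. They were taken by symbol from the table of gene levels, which lists 20413 genes, and all 6 were found. The study sequenced RNA from right, ipsilateral L4-6 dorsal root ganglia (DRGs), where sensory neurons of the hind limb have their cell bodies, in male Sprague Dawley rats aged 8 to 10 weeks. Rats of the chronic post-ischemia pain (CPIP) group, a model of complex regional pain syndrome, had an O-ring around the ankle under anesthesia for 3 h, followed by reperfusion. Rats of the CPIP+EA group had the same ischemia and then electroacupuncture at the Zusanli and Kunlun points of both hind limbs, once a day for 10 days. Sham rats had the anesthesia and a cut ring that left blood flow open, and no group had electroacupuncture without ischemia. All ganglia were collected on day 10, and each group had 3 libraries, numbered as in the labels. Whether each library came from 1 rat is not stated outright, so the p-values measure the spread between these libraries.

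Sodium channel beta subunits are single-pass membrane proteins with an immunoglobulin-like domain outside the cell. They join the pore-forming alpha subunits, alter how fast the channels open and close and how many reach the membrane, and also act in cell adhesion along axons. HCN channels open when the membrane becomes more negative than at rest, carry a depolarizing inward current and bind cyclic AMP, which eases their opening to an extent that differs between the isoforms. They set resting potential and repetitive firing, and in sensory neurons both families are known for their part in excitability and pain.

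Both families were expressed throughout. In the limma fit made here, no member passed the study's threshold in any comparison of the groups. The authors' own Q-values were not used, so their calls for these genes are not given. Of the 17187 genes tested, 61 passed in this fit for CPIP against Sham. For CPIP+EA against CPIP, 0 passed. In each of these comparisons the paper reports many more genes past the same cut-offs. The reason for that difference was not tested. Between CPIP and Sham the largest log2 fold change of the 6 genes was that of Hcn3 (0.35, limma adjusted p = 0.523), at 6.61 to 7.48 FPKM in Sham and 8.84 to 9.79 FPKM in CPIP. Hcn2 was slightly lower in CPIP than in Sham, also without overlap of the libraries (limma adjusted p = 0.759). In that comparison 15.9% of all genes tested had libraries that did not overlap, in either direction. FPKM, the unit of the deposited values, is the number of fragments per kilobase of transcript in a library scaled to its mapped fragments, so levels can be set side by side between genes. In bulk ganglion RNA, fewer cells of a type and less RNA per cell cannot be told apart.

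Averaged over the 9 libraries, Scn4b had the highest level of the 6 genes at 105.2 ± 12.3 FPKM (SD, n = 9), above 95.5% of the genes tested. It encodes a subunit known for its part in resurgent sodium current. Hcn2, the most strongly cAMP-sensitive isoform alongside Hcn4, followed at 28.5 ± 2.85 FPKM, Scn3b at 28.0 ± 4.92 FPKM and Scn2b at 24.6 ± 4.65 FPKM. Hcn3, an isoform with little response to cAMP, had 8.27 ± 1.33 FPKM. Hcn4, the main pacemaker isoform of the heart's sinus node, had 2.91 ± 0.781 FPKM, above 32.4% of the genes tested. Scn4b exceeded Hcn2 in 9 of 9 libraries, with a median ratio of 3.56, and Scn2b exceeded Hcn3 and Hcn3 exceeded Hcn4 in 9 of 9 libraries each. The middle of the order was not separated: Hcn2 exceeded Scn3b in 7 of 9 libraries and Scn3b exceeded Scn2b in 7 of 9, with differences within their spread.

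Of the 6 genes, 3 were matched in the RefSeq promoter table of the rat assembly GRCr8, namely Scn2b, Scn4b and Hcn2. In that assembly Scn2b and Scn4b are neighboring protein-coding genes on chromosome 8, on the same strand. Their upstream sequences, which differ in base composition, are shown with that of Hcn2. A link of base composition to level was not tested. The 250 bases before each start site are given from 5′ to 3′, with capitals marking GC boxes (GGGCGG, or CCGCCC on the other strand). They lie at chr8:54322133-54322382 (plus strand) for Scn2b, chr8:54343623-54343872 (plus strand) for Scn4b and chr7:10639458-10639707 (minus strand) for Hcn2.
Scn2b: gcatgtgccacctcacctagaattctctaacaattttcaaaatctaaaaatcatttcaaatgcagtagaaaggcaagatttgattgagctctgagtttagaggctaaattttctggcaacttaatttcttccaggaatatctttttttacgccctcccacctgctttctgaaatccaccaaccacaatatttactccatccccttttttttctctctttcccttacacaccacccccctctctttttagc
Scn4b: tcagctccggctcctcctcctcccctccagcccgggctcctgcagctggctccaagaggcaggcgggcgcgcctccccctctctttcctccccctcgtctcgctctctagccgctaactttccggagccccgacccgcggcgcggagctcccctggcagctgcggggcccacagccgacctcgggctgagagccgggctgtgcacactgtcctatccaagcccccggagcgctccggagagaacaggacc
Hcn2: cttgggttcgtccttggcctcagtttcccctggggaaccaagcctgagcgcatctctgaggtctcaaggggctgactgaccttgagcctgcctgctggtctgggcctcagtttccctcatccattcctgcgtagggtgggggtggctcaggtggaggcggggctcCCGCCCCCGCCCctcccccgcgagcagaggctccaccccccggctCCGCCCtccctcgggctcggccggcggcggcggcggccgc
The Scn2b stretch had a GC content of 38.8%, lower than in most promoters (11.4% of 27457 promoters were lower), and 1 CpG. The Scn4b stretch had 71.6% GC, above 93.3% of promoters, and 21 CpGs. The Hcn2 stretch had the same GC content and 18 CpGs. The median over all promoters was 52.0%. A GC box was found 3 times in the Hcn2 stretch, with 2 of them side by side, and 0 times in the other 2 stretches, while 32.4% of all promoters held at least 1. CCAAT (34.3% of promoters), TATAAA (13.1%) and TGACG, the core of the cAMP response element (19.0%), were searched on both strands and found in none of the 3 stretches. A match of letters is a description and not a binding site.

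The libraries were close to each other, with FPKM sums between 445647 and 482940. Across genes, the median Pearson r of a library with the other 8 was between 0.984 and 0.987 for 8 libraries and 0.980 for CPIP+EA replicate 3. That library also had the lowest mean log2 level of the 8 sensory neuron markers, 9.26 against 9.38 to 9.63 in the other libraries, and of the 4 markers of nonpeptidergic neurons, 5.02 against 5.44 to 5.67. For the 6 markers of large A-fiber neurons that library was not the lowest, at 6.10 against 6.04 and 5.96 in CPIP+EA replicates 1 and 2. Its mean log2 level was the highest of the 9 for macrophage markers, at 3.60 against at most 3.37, and for erythroid markers, at 8.98 against at most 8.47. It was the lowest of the 9 libraries for 4 of the 6 genes, Scn2b, Scn3b, Scn4b and Hcn3. The part of the differing cell markers in the results was not tested.

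**Figure D1:**
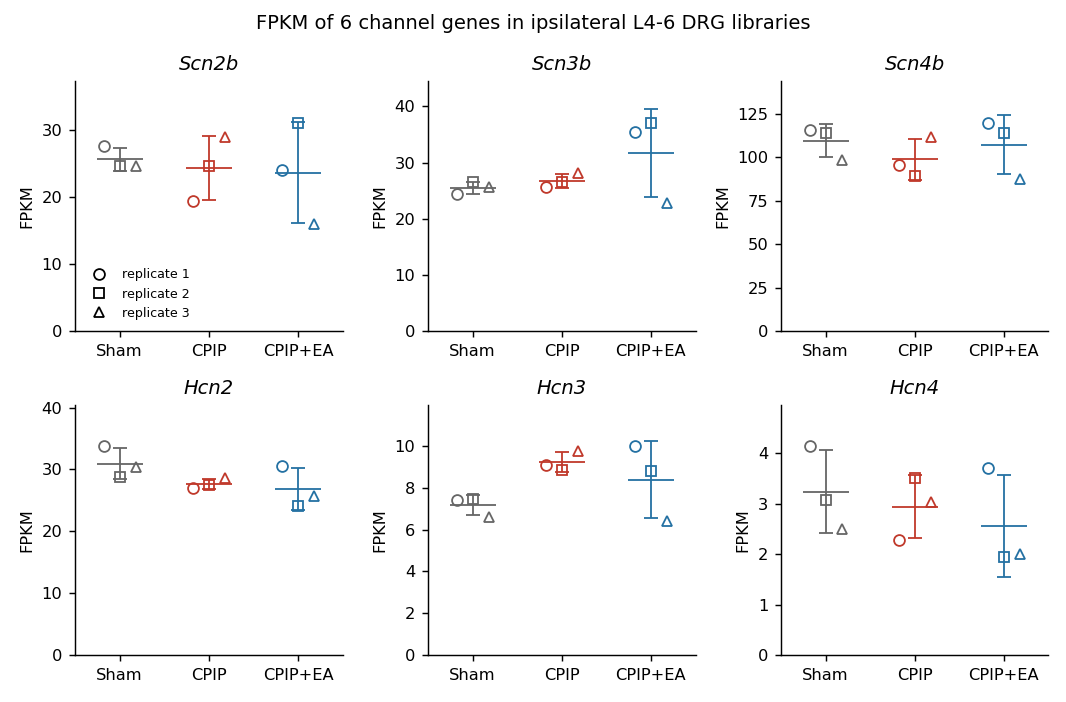
FPKM of the 6 channel genes in each library, 1 panel per gene with its own vertical axis starting at 0. Points are libraries, with a marker shape for each replicate number, and the bars give the mean and SD of the 3 libraries in the Sham, CPIP and CPIP+EA groups. Hcn3 in CPIP (8.84 to 9.79 FPKM) lies above Sham (6.61 to 7.48 FPKM), and CPIP+EA replicate 3 is the lowest point of 9 for Scn2b, Scn3b, Scn4b and Hcn3.

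Of the beta subunits, Scn4b (gene ID 315611) had 115.94, 113.83 and 98.70 FPKM in Sham, 95.79, 89.08 and 111.98 FPKM in CPIP, and 119.91, 113.80 and 87.82 FPKM in CPIP+EA. The groups overlapped, and each group held a library above 110 and a library below 100. The log2 fold change was -0.15 between CPIP and Sham (SE 0.13, 95% interval -0.44 to 0.15, limma adjusted p = 0.881) and 0.11 between CPIP+EA and CPIP (SE 0.13, interval -0.19 to 0.40, limma adjusted p = 0.997). With 1 library left out, the first was -0.24 (without CPIP replicate 3) to -0.08 (without CPIP replicate 2), and the second 0.02 (without CPIP+EA replicate 1) to 0.24 (without CPIP+EA replicate 3). Between CPIP+EA and Sham the value was -0.04, and 0.10 without CPIP+EA replicate 3. All fold changes here are on the log2(FPKM + 0.5) scale and come from 1 limma fit over the 9 libraries, with p-values adjusted over the 17187 genes tested. In all 4 comparisons the 95% interval for Scn4b lay within a 1.5-fold change in either direction.

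Scn3b (gene ID 245956), a subunit known to be present in small nociceptive neurons, had 24.45, 26.56 and 25.65 FPKM in Sham, 25.63, 26.50 and 28.07 FPKM in CPIP, and 35.40, 37.10 and 22.73 FPKM in CPIP+EA. Sham and CPIP formed a narrow band, 2 libraries of CPIP+EA stood above all 7 others, and the remaining one, CPIP+EA replicate 3, was the lowest of the 9. The mean was 25.6 ± 1.06 FPKM in Sham, 26.7 ± 1.24 FPKM in CPIP and 31.7 ± 7.85 FPKM in CPIP+EA (SD, n = 3 each). With all libraries, the log2 fold change was 0.21 between CPIP+EA and CPIP (SE 0.16, limma adjusted p = 0.997) and 0.28 between CPIP+EA and Sham (SE 0.16, limma adjusted p = 0.532). Without CPIP+EA replicate 2, the highest library, they were 0.09 and 0.15. Without CPIP+EA replicate 3 they were 0.43 (limma adjusted p = 0.334) and 0.50 (limma adjusted p = 0.0110). The last value lies just outside the threshold of 0.01 and below the log2 difference of 0.585 that 1.5-fold requires, and it rests on 2 libraries of CPIP+EA, assumed to vary like those of the other groups. For both groups with ischemia against Sham the value was 0.17, 0.11 without CPIP+EA replicate 2 and 0.28 without CPIP+EA replicate 3 (limma adjusted p = 0.0367).

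Scn2b (gene ID 25349), which is linked to the alpha subunit by a disulfide bond, had 27.64, 24.64 and 24.64 FPKM in Sham, 19.48, 24.64 and 29.04 FPKM in CPIP, and 24.01, 31.12 and 15.94 FPKM in CPIP+EA. The Sham libraries lay inside the range of CPIP and of CPIP+EA. The log2 fold change was -0.09 between CPIP and Sham (SE 0.22, interval -0.59 to 0.41) and -0.07 between CPIP+EA and CPIP (SE 0.22, interval -0.57 to 0.43). Without CPIP+EA replicate 3 the latter was 0.18, and between CPIP+EA and Sham the value went from -0.16 to 0.09, so its direction depended on that library. The SD of Scn2b within groups, 0.32 on the log2 scale, was larger than that of 97.2% of the 2745 genes of like level, whose median was 0.10. The same share was 91.8% for Scn3b, 85.2% for Scn4b, 85.5% for Hcn4, 79.5% for Hcn3 and 63.1% for Hcn2. Without CPIP+EA replicate 3, a setting chosen after the data were seen, it was 94.7% for Scn2b, 78.1% for Scn4b, 89.4% for Hcn4 and 76.5% for Hcn2, and 17.8% for Scn3b and 32.4% for Hcn3, so the wide spread of the last 2 rests on that library.

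Of the HCN channels, Hcn2 (gene ID 114244), known for its part in inflammatory and neuropathic pain, had 33.71, 28.73 and 30.34 FPKM in Sham, 26.94, 27.54 and 28.55 FPKM in CPIP, and 30.55, 24.14 and 25.70 FPKM in CPIP+EA. The CPIP libraries were all below Sham, though the nearest of each, 28.55 and 28.73 FPKM, were close, and CPIP+EA overlapped both groups. The log2 fold change was -0.15 between CPIP and Sham (SE 0.09, interval -0.36 to 0.05, limma adjusted p = 0.759) and -0.21 between CPIP+EA and Sham (SE 0.09, limma adjusted p = 0.414). Both groups with ischemia together differed from Sham by -0.18 (SE 0.08, limma adjusted p = 0.425), and its interval lay within 1.5-fold in all 4 comparisons. With 1 library left out, CPIP against Sham ranged from -0.21 (without Sham replicate 2) to -0.09 (without Sham replicate 1). For CPIP+EA against Sham the range was -0.30 (without CPIP+EA replicate 1, limma adjusted p = 0.143) to -0.14 (without CPIP+EA replicate 2, limma adjusted p = 0.692), and for both groups together -0.23 (without Sham replicate 2, limma adjusted p = 0.523) to -0.12 (without Sham replicate 1, limma adjusted p = 0.717).

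Hcn3 (gene ID 114245) had 7.42, 7.48 and 6.61 FPKM in Sham, 9.08, 8.84 and 9.79 FPKM in CPIP, and 9.99, 8.81 and 6.41 FPKM in CPIP+EA. All CPIP libraries and 2 of the 3 CPIP+EA libraries were above all Sham libraries, while CPIP+EA replicate 3 was the lowest of the 9. The mean was 7.17 ± 0.486 FPKM in Sham, 9.24 ± 0.494 FPKM in CPIP and 8.40 ± 1.82 FPKM in CPIP+EA (SD, n = 3 each). Between CPIP and Sham the difference was 1.27-fold, with a log2 fold change of 0.35 (SE 0.14, interval 0.03 to 0.66, limma adjusted p = 0.523), so it did not pass once adjusted over all genes. It was above 0 under all 22 alternatives run, but its unadjusted limma p was no longer under 0.05 with quantile normalization, on the TPM scale, with median centring or without any 1 of the Sham or CPIP libraries. Centred on sensory neuron markers, the value was 0.40 (limma adjusted p = 0.269), and over the alternatives the limma adjusted p was 0.136 (without CPIP+EA replicate 3) to 0.810 (without CPIP replicate 3). Between CPIP+EA and CPIP it was -0.15 (SE 0.14, interval -0.47 to 0.17), and 0.02 without CPIP+EA replicate 3. Between CPIP+EA and Sham it was 0.20 (SE 0.14, limma adjusted p = 0.641), 0.37 without that library (limma adjusted p = 0.115) and 0.07 without CPIP+EA replicate 1 (limma adjusted p = 0.875). In GRCr8 Hcn3 overlaps Pklr, a pyruvate kinase gene of liver and red cells, whose level was 0.46 to 1.03 FPKM in the libraries and which differed by 0.09 on the log2 scale between CPIP and Sham. Which reads of the shared stretch were given to which gene is not stated.

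Hcn4 (gene ID 59266) had 4.14, 3.08 and 2.51 FPKM in Sham, 2.28, 3.51 and 3.04 FPKM in CPIP, and 3.72, 1.94 and 2.01 FPKM in CPIP+EA. The groups overlapped, and replicates of 1 group differed more than the group means did. The log2 fold change was -0.11 between CPIP and Sham (SE 0.25, interval -0.67 to 0.45), -0.20 between CPIP+EA and CPIP (interval -0.76 to 0.36) and -0.32 between CPIP+EA and Sham (interval -0.88 to 0.24). These intervals are the widest of the 6 genes and include 1.5-fold lower values. With 1 library left out, CPIP against Sham was -0.26 (without Sham replicate 3) to 0.05 (without Sham replicate 1), and CPIP+EA against CPIP was -0.46 (without CPIP+EA replicate 1) to -0.07 (without CPIP+EA replicate 2). For CPIP+EA against Sham the values were -0.57 (without CPIP+EA replicate 1) to -0.15 (without Sham replicate 1). Without CPIP+EA replicate 3 the last 2 comparisons gave -0.09 and -0.20. Of the 3 genes listed for heart and sinus node, Myl7 was at 0 in 7 of 9 libraries and reached at most 0.22 FPKM. Nppa had 4.17 to 7.25 FPKM and Shox2 10.39 to 13.18 FPKM. Whether these genes mark heart cells in ganglia was not tested.

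**Figure D2:**
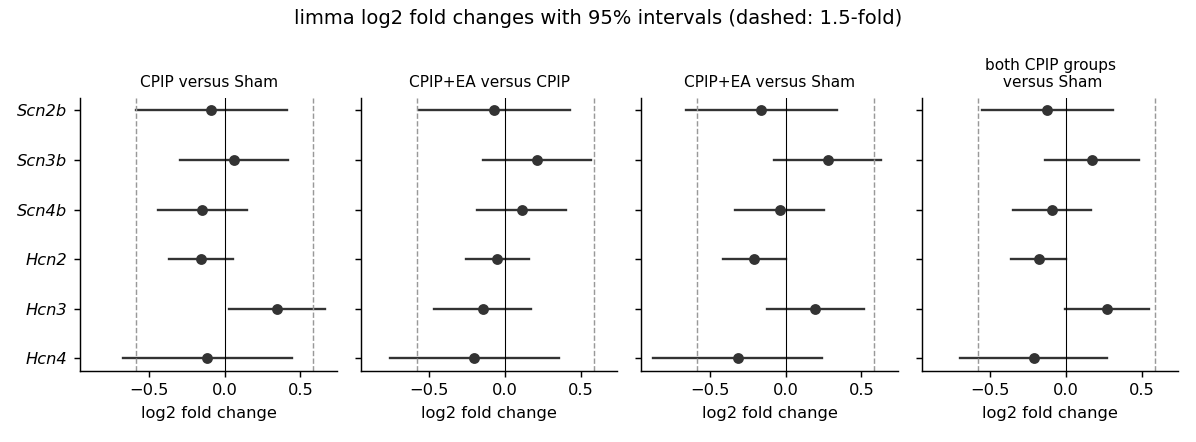
Fitted log2 fold change of each channel gene in 4 comparisons, with its 95% interval from limma. Dashed lines mark 1.5-fold higher and lower. Between CPIP and Sham, Hcn3 (0.35) is the 1 gene whose interval excludes 0, and the intervals of Scn2b, Hcn3 and Hcn4 extend past a dashed line.

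Read against all genes, few of these values stood apart. Between CPIP and Sham, 0 of the 6 genes passed an adjusted p under 0.01 with at least 1.5-fold, against 0.355% of the genes tested. In that comparison, 1 had an unadjusted p under 0.05 (8.66% of all genes did) and 2 had libraries that did not overlap (15.9% of all genes). Between CPIP+EA and CPIP the counts were 0, 0 and 0, against 0.00%, 4.29% and 8.23% of all genes. Between CPIP+EA and Sham they were again 0, 0 and 0, against 0.483%, 12.2% and 16.2%. For both groups with ischemia against Sham they were 0, 0 and 0, against 0.599%, 11.8% and 7.27%. The comparisons share libraries, so they are not independent of each other. The median log2 fold change of the 6 genes was -0.10 between CPIP and Sham, -0.06 between CPIP+EA and CPIP, -0.10 between CPIP+EA and Sham and -0.11 for both groups against Sham, while that of all genes was between -0.01 and 0.01. The 95% interval lay within 1.5-fold in either direction for 3 genes between CPIP and Sham (Scn3b, Scn4b and Hcn2) and for 5 genes, all but Hcn4, between CPIP+EA and CPIP. For the remaining genes the interval reached past 1.5-fold.

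Injury genes of sensory neurons behaved otherwise in the same libraries. All 6 of those listed, Atf3, Sprr1a, Gal, Npy, Gap43 and Sox11, rose past the threshold between CPIP and Sham, with a median log2 fold change of 2.84. Atf3, a transcription factor of injured neurons, rose by 3.20 on the log2 scale (limma adjusted p = 1.19e-05). Between CPIP+EA and CPIP 0 of the 6 passed, and 0.00% of all genes tested did. All 6 had a fitted fold change above 0 in that comparison, with a median of 0.11 on the log2 scale. Gal (0.48, limma adjusted p = 0.969) and Npy (0.13, limma adjusted p = 0.997) were higher there without overlap of the libraries, as 8.23% of all genes did not overlap in either direction. The summed level of the injury list was 145.6 to 152.8 FPKM in Sham, 735 to 854 FPKM in CPIP and 802 to 907 FPKM in CPIP+EA. Of the 8 sensory neuron markers 0 passed the threshold between CPIP and Sham, with 1 higher and 2 lower at an unadjusted limma p under 0.05. Their summed level was 9215 to 11050 FPKM in Sham, 9380 to 9979 FPKM in CPIP and 9010 to 10953 FPKM in CPIP+EA. Of the 6 markers of large A-fiber neurons, in which Scn4b is known to be strong, 0 passed in any comparison, and 5 had a fitted fold change below 0 between CPIP and Sham, with a median of -0.19 on the log2 scale over the 6. Their mean log2 level was 6.16 to 6.22 in Sham libraries, 6.07 to 6.13 in CPIP and 5.96 to 6.10 in CPIP+EA, so all 6 libraries with ischemia were below all of Sham. Their summed level overlapped, at 1893 to 2253 FPKM in Sham, 1965 to 2085 FPKM in CPIP and 1872 to 2175 FPKM in CPIP+EA, and Spp1, the marker that went the other way, had a log2 difference of 0.32 between CPIP and Sham. The part of these markers in the lower values of Hcn2 and Scn1a was not tested.

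None of the markers of other cells passed the threshold in any comparison, which covers the peptidergic and nonpeptidergic neurons, satellite glia, Schwann cells, macrophages, skeletal muscle, heart, erythroid cells and fibroblasts. Their summed levels overlapped between Sham and CPIP except for satellite glia, at 3593 to 3717 FPKM in Sham, 3756 to 4094 FPKM in CPIP and 3980 to 4180 FPKM in CPIP+EA. Most of that sum was Apoe, with a mean of 3471 FPKM in Sham and 3733 FPKM in CPIP, while Fabp7 (39.3 and 27.5 FPKM) and Kcnj10 (34.8 and 29.4 FPKM) had lower means in CPIP. The mean log2 level of the 4 satellite glia markers, which weights them equally, was 7.11 to 7.36 in Sham libraries, 7.06 to 7.19 in CPIP and 7.28 to 7.31 in CPIP+EA. Schwann cell markers summed to 6949 to 11012 FPKM in Sham, 6609 to 11786 FPKM in CPIP and 4632 to 9183 FPKM in CPIP+EA. Those of skeletal muscle summed to 7.61 to 11.3 FPKM in Sham, to 22.3, 95.5 and 6.66 FPKM in the CPIP libraries and to 10.5 to 29.8 FPKM in CPIP+EA. Fibroblast markers summed to 759.9 to 1031 FPKM in Sham, 645.1 to 853.5 FPKM in CPIP and 423.1 to 872.1 FPKM in CPIP+EA. Among them Lum, a matrix proteoglycan, was lower in all 6 libraries with ischemia than in any of Sham, with means of 113.1, 81.7 and 73.8 FPKM in the order Sham, CPIP and CPIP+EA (log2 difference of both groups from Sham -0.55, limma adjusted p = 0.0792). The part of these differences in the levels of the channel genes was not tested.

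**Figure D3:**
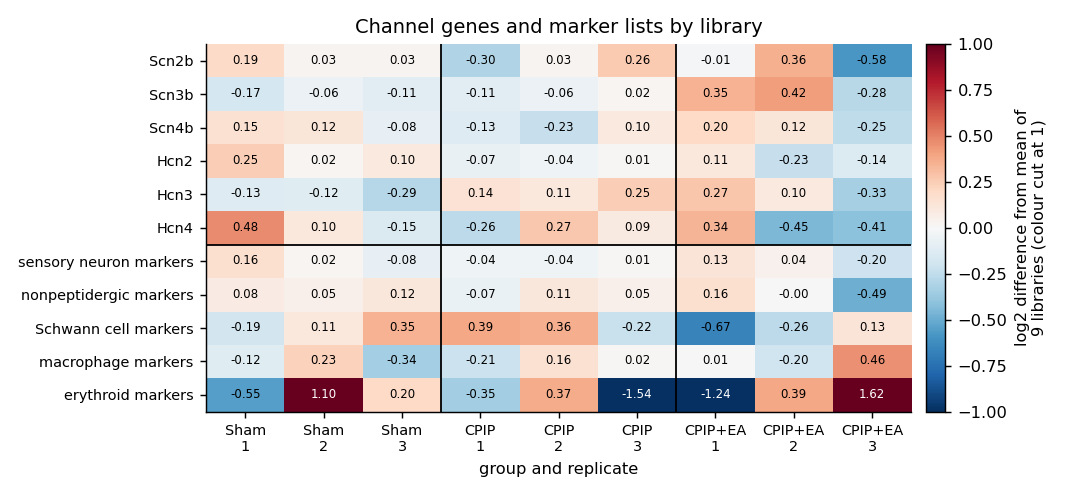
Difference of each library from the mean of the 9 libraries, on the log2 scale, for the 6 channel genes (upper rows) and for the mean of 5 marker lists (lower rows), with the colour limited at 1. CPIP+EA replicate 3 is below the mean for all 6 channel genes and for the 2 neuron lists shown (sensory and nonpeptidergic), and above it for macrophage and erythroid markers. The list of large A-fiber neurons is not shown.

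Because FPKM is scaled for length, the balance among the 3 HCN genes described here can be compared between libraries without regard to their total. Of the summed FPKM of Hcn2, Hcn3 and Hcn4, Hcn3 made up 16.4%, 19.0% and 16.8% in Sham libraries, 23.7%, 22.2% and 23.7% in CPIP libraries, and 22.6%, 25.3% and 18.8% in CPIP+EA libraries. Of the 6 libraries of rats with ischemia, 5 were above all 3 of Sham, and CPIP+EA replicate 3 fell within the range of Sham. The mean share was 22.7 ± 2.19% with ischemia (SD, n = 6) and 17.4 ± 1.44% in Sham (SD, n = 3), a difference of 5.30 percentage points. The exact two-sided permutation test over the 84 divisions of 6 against 3 gave p = 0.0238, and 0.286 after Benjamini-Hochberg adjustment over the 24 shares and comparisons tested. With 1 library left out the difference was 4.78 to 6.12 points, with an exact permutation p of 0.0179 to 0.0714. With 3 libraries against 3 the smallest p is 0.1, which the Hcn3 share reached between CPIP and Sham, where it differed by 5.78 points.

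Hcn2 made up 74.5%, 73.1% and 76.9% of the same sum in Sham libraries, 70.3%, 69.0% and 68.99% in CPIP libraries, and 69.0%, 69.2% and 75.3% in CPIP+EA libraries. The CPIP libraries were below all of Sham, and of the CPIP+EA libraries replicate 3 was inside the Sham range. Both groups with ischemia together differed from Sham by -4.51 points (exact permutation p = 0.0357, adjusted p = 0.286), and with 1 library left out the difference was -5.51 to -3.48 points with an exact permutation p of 0.0179 to 0.125. The Hcn4 share averaged 7.78 ± 1.39% for Sham, 7.37 ± 1.42% for CPIP and 6.62 ± 1.56% for CPIP+EA (SD, n = 3 each), and the groups overlapped. Shares of 1 sum are tied to each other, so the higher share of Hcn3 and the lower share of Hcn2 are not separate results.

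**Figure D4:**
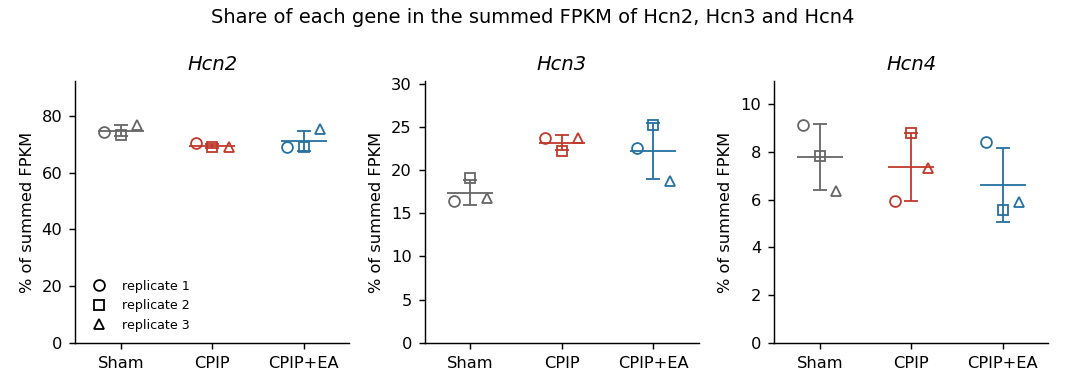
Share of each gene in the summed FPKM of Hcn2, Hcn3 and Hcn4, in percent, by library and group. Points are libraries and bars the mean and SD of 3. For Hcn3 all libraries of CPIP (22.2 to 23.7%) lie above Sham (16.4 to 19.0%) and CPIP+EA spans 18.8 to 25.3%, and for Hcn2 the CPIP libraries lie below Sham.

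Of the summed FPKM of Scn2b, Scn3b and Scn4b, Scn4b made up 62.5 to 69.4%, Scn3b 14.6 to 20.4% and Scn2b 12.6 to 17.6% in the 9 libraries. The Scn3b share was 14.6%, 16.1% and 17.2% in Sham libraries, 18.2%, 18.9% and 16.6% in CPIP libraries, and 19.7%, 20.4% and 17.97% in CPIP+EA libraries. All CPIP+EA libraries were above Sham, replicate 3 included, while CPIP replicate 3 was within its range. The share differed by 3.41 points between CPIP+EA and Sham, at the smallest p the design allows (exact permutation p = 0.1, adjusted p = 0.4). Both groups with ischemia together differed from Sham by 2.68 points (exact permutation p = 0.0357, adjusted p = 0.286), and with 1 library left out by 1.98 to 3.31 points (exact permutation p of 0.0179 to 0.143). The shares of Scn2b and Scn4b overlapped between the groups in all 4 comparisons.

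Genes known to work with these channels were followed as a list of 40, comprising sodium channel alpha subunits, axonal partners and proteases of the beta subunits, regulators of sodium channels, partners of HCN channels, and the enzymes that make and break down cAMP. Of the 40, 0 passed the threshold in any comparison, against 0.355%, 0.00%, 0.483% and 0.599% of all genes tested in the 4 comparisons. At an unadjusted limma p under 0.05, CPIP had 3 higher and 3 lower than Sham (8.66% of all genes met this in either direction). CPIP+EA had 0 that differed from CPIP (4.29% of all genes), and 3 higher and 8 lower than Sham (12.2%). In both groups against Sham, 3 were higher and 4 lower (11.8%). Their median log2 fold changes in these comparisons were -0.04, -0.05, -0.10 and -0.06. Of the 7 alpha subunits, 6 had a fitted fold change below 0 and 1 above 0 between CPIP and Sham, with a median of -0.24 on the log2 scale.

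The smallest p belonged to Fgf12, an intracellular factor that binds the tail of alpha subunits and alters their inactivation. Fgf12 had 137.42, 140.88 and 129.95 FPKM in Sham, 109.33, 102.35 and 112.25 FPKM in CPIP, and 95.41, 108.75 and 93.32 FPKM in CPIP+EA. All 6 libraries with ischemia were below Sham, by -0.39 on the log2 scale (SE 0.06, limma adjusted p = 0.0156), short of the threshold in both p and fold. Scn3a, an alpha subunit that is scarce in adult sensory neurons, had 1.18, 1.29 and 1.46 FPKM in Sham, 2.02, 1.64 and 2.45 FPKM in CPIP, and 2.16, 2.38 and 2.00 FPKM in CPIP+EA. Its log2 fold change for both groups against Sham was 0.52 (SE 0.12, limma adjusted p = 0.0799), with no overlap. Scn1a, an alpha subunit of large sensory neurons, was at 28.7 ± 2.60 FPKM in Sham, 23.4 ± 0.382 FPKM in CPIP and 24.1 ± 0.882 FPKM in CPIP+EA (log2 fold change of both groups against Sham -0.26, SE 0.06, limma adjusted p = 0.0824). Kcne2, a small membrane protein that can join HCN channels, was at 1.05 ± 0.188 FPKM in Sham, 1.62 ± 0.0404 FPKM in CPIP and 1.70 ± 0.375 FPKM in CPIP+EA (0.47, SE 0.13, limma adjusted p = 0.158).

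**Figure D5:**
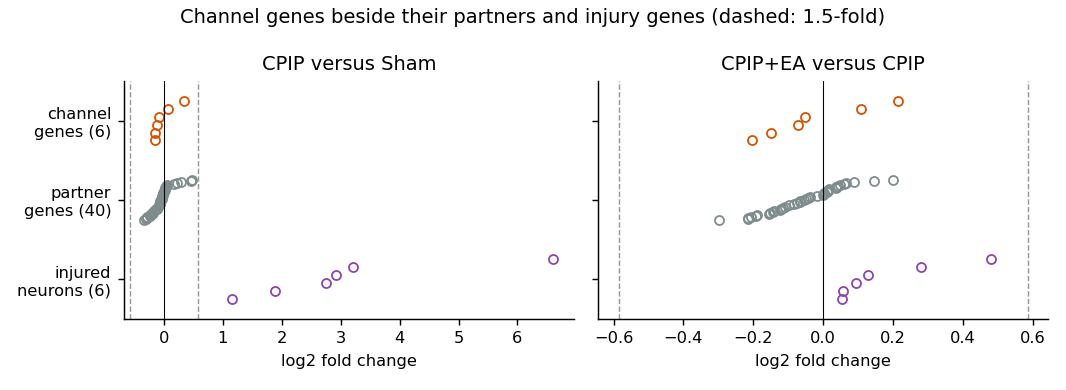
Log2 fold changes of the 6 channel genes, the 40 partner genes and the 6 injury genes between CPIP and Sham (left) and between CPIP+EA and CPIP (right), 1 point per gene in order of its value. The horizontal ranges of the panels differ, and dashed lines mark 1.5-fold. Between CPIP and Sham all injury genes lie beyond the right line (median 2.84), while the channel and partner genes lie between the lines in both panels.

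Over the 9 libraries, the members varied together in part, given here as a description without a test because the libraries are the same and replicate 3 of CPIP+EA is the lowest for 4 of the 6 genes. Hcn2 and Hcn4 had a Pearson r of 0.82 on the log2 scale (0.79 without CPIP+EA replicate 3, n = 8). Scn2b and Scn4b, the neighbors on chromosome 8, had 0.69 (0.51 without it), and Scn3b and Hcn3 had 0.66 (0.55 without it). Hcn2 and Hcn3, the pair that differed in opposite directions between CPIP and Sham, had -0.09 (-0.38 without it), and 0.45 with the group means removed (0.60 without it). With the group means removed, Scn4b and Hcn3 had 0.92 (0.87 without it) and Scn3b and Hcn3 0.88 (0.06 without it).

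Among the 13914 genes with a mean of at least 1 FPKM, those most like each member over the 9 libraries were, with Pearson r, Snx21 (0.953), Tspy26 (0.939) and Gnal (0.934) for Scn2b. For Scn3b they were Gatad2a (0.943) and Sqle (0.940), and for Scn4b RGD1310081 (0.967), Ptdss1 (0.961) and Tvp23a (0.959). For Hcn2 they were RGD1306941 (0.963), Kif21b (0.958) and Lrfn2 (0.947). Cacnb1 (0.949), Slc4a8 (0.946) and Col19a1 (0.946) were most like Hcn3, and Sf3b2 (0.967), Sall2 (0.962) and Tmem184b (0.950) were most like Hcn4. Cacnb1, a calcium channel beta subunit, followed Hcn3 closely, with 15.73, 13.87 and 13.78 FPKM in Sham, 18.04, 19.83 and 20.95 FPKM in CPIP, and 20.05, 18.69 and 13.68 FPKM in CPIP+EA. Like Hcn3, it was higher in every CPIP library than in Sham and lowest of all in CPIP+EA replicate 3. These r values were the highest among many genes searched over the same 9 libraries, and no test was made.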

How the data were processed

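RNA-Seq of 9 ganglion libraries, 3 each of Sham, CPIP and CPIP+EA, was used as deposited. The authors prepared poly(A) libraries, filtered reads with SOAPnuke and deposited 1 FPKM value, rounded to 2 decimals, for each gene in each library. The aligner, quantifier, genome build and annotation are not given in the sources used here. Beside the FPKM, the authors' table holds 9 columns comparing pairs of groups (a log2 ratio, a P-value and a Q-value for each), which were not used. The paper gives the total reads of each library, but no counts per gene are given. The number of reads behind a value is therefore unknown, and precision rests on the number of libraries.

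log2(FPKM + 0.5) was fitted with limma 3.58.1 in R 4.3.3 (1 fit of 9 libraries, no covariate, eBayes with a mean-variance trend) for the 17187 genes whose mean FPKM reached 0.1. P-values were two-sided and adjusted by the Benjamini-Hochberg method. The threshold was an adjusted limma p under 0.01 together with a fold of 1.5 or more, or 0.667 or less. The cut-offs are those of the paper, which applied them to Q-values of its own. The pseudocount makes fold changes of low genes smaller than they are. Shares of a family were compared with exact permutation tests over all divisions of the libraries, written in Python. The fit was tested on simulated data. Tables were prepared in Python 3.11.15 with pandas 2.3.3 and numpy 2.4.6, and figures drawn with matplotlib 3.10.9.

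Named genes were the 6 members, the partner genes past the threshold or else the 4 with the smallest p, markers set beside a member, and the 3 genes most like each member. Some genes that the rule would name, and sums that include them, are not reported here, so shares were taken among the 3 members of each family and partner counts without those genes, which departs from the plan. Pklr was added for its overlap with Hcn3. The members, partner list and marker lists were chosen with earlier results of these data known. Marker lists covered sensory neurons (all, large A-fiber, peptidergic, nonpeptidergic and injured), satellite glia, Schwann cells, macrophages, skeletal muscle, heart, erythroid cells and fibroblasts. Alternatives were other pseudocounts, filters, scalings, trends, a replicate block, a fit of only the libraries compared, a looser threshold and each library left out in turn.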

Additional observations from a re-analysis of the deposited data

How the results depend on the processing

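Of 522 alternative values of the 24 log2 fold changes (6 genes in 4 comparisons), 510 kept their direction and their side of the threshold, 12 changed sign and 0 crossed the threshold, with a smallest adjusted limma p of 0.0110 (Scn3b, CPIP+EA against Sham, without CPIP+EA replicate 3). The count of the 6 genes past the threshold was 0 in every comparison under every alternative run. The log2 fold change of Hcn3 between CPIP and Sham was 0.29 to 0.40 throughout. The count at an unadjusted p under 0.05 between CPIP and Sham was 1, and 0 with quantile normalization, the TPM scale or median centring. For CPIP+EA against Sham and for both groups against Sham it was 0, and 1 after centring on sensory neuron markers or, for both groups, with a robust trend. With 1 library left out, the count at an unadjusted p under 0.05 was 0 to 1 between CPIP and Sham, 0 to 1 between CPIP+EA and CPIP, 0 to 2 between CPIP+EA and Sham and 0 to 2 for both groups against Sham.

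The deviations of same-numbered libraries from their group means had a Pearson r between -0.24 and 0.30. Differently numbered libraries were not compared, so these values cannot show whether the numbers pair the samples. With the replicate block, the count past the threshold was 0 in every comparison, and the count at an unadjusted p under 0.05 was 1 for CPIP+EA against Sham and 1 for both groups against Sham, both Hcn2.

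With 1 library left out, the log2 fold change of Scn2b lay between -0.220 and 0.0621 (CPIP against Sham), -0.292 and 0.180 (CPIP+EA against CPIP), -0.379 and 0.0929 (CPIP+EA against Sham) and -0.233 and 0.00289 (both groups). Hcn4 lay between -0.260 and 0.0526 for CPIP against Sham, and Scn4b between -0.127 and 0.0967 for CPIP+EA against Sham, where centring on sensory neuron markers gave 0.00417. For CPIP+EA against CPIP, Hcn2 lay between -0.149 and 0.0180 and Hcn3 between -0.279 and 0.0227.

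Of 162 alternative values of the shares among the members, each with 1 library left out, 131 kept direction and side, 10 changed sign, 21 lost an exact permutation p under 0.05 and 0 gained it. In percentage points, the Scn2b share lay between -0.473 and 1.40 for CPIP against Sham, and the Scn4b share between -1.22 and 2.24 for CPIP+EA against CPIP and between -3.38 and 0.0752 for CPIP+EA against Sham. For CPIP+EA against CPIP the Hcn2 share lay between -0.352 and 2.80 and the Hcn3 share between -2.50 and 0.735, and for CPIP against Sham the Hcn4 share lay between -1.13 and 0.291. The 21 values that lost the call belonged to both groups against Sham, where the Hcn3 share lay between 4.78 and 6.12, the Hcn2 share between -5.51 and -3.48 and the Scn3b share between 1.98 and 3.31. The cause of these changes was not tested.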
